A study of Rattus norvegicus with 6 samples.

Results

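Interferon-stimulated genes (ISGs) are genes that cells switch on after interferon binds its receptor. Here they are the 42 genes of a list of antiviral, sensor and transcription factor genes, matched by gene name in the deposited count table, and all 42 had a row among the 34156 genes of the table. Of these, 40 were among the 13614 genes with enough counts to test (at least 10 counts in at least 3 libraries), and Oas2 and Oas3 were not. The samples were rat fibroblast-like synoviocytes from a commercial cell collection (RA-FLS, cells of the joint lining, labelled rheumatoid arthritis and wild type). The 3 libraries of the TNF-α group came from cells given 10 ng/mL TNF-α, and the 3 libraries of the TNF-α+EMO group from cells given the same TNF-α together with 80 μmol/L emodin (EMO, an anthraquinone of rhubarb). Both groups therefore carried TNF-α, and no library without TNF-α was analysed here. The labels give day 5, whereas the study's methods give a shorter incubation. The study's methods call the samples of a group biological replicates, but no source says that they came from separate cultures, so p-values measure the spread between these samples, which may be technical.

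Type I interferons signal through the receptor IFNAR and its kinases JAK1 and TYK2, which activate STAT proteins. STAT2 and IRF9 are parts of the complex ISGF3, which binds the interferon-stimulated response element (ISRE) in the promoters of ISGs. Interferon gamma uses JAK1 and JAK2 and acts mainly through another element, GAS. In synovial fibroblasts, TNF is known to raise ISGs late, by way of IRF1 and of interferon beta that the cells secrete.

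Promoter sequences show the element that many of the ISGs share. RefSeq promoters of the rat build GRCr8, each with 250 bases before and 50 bases after a start site, matched 32 of the 42 genes. Ddx58, Dhx58, Zbp1, Oas2, Adar, Ifit1, Ifit2, Mx2, Isg15 and Usp18 were not matched. The ISRE core was searched on both strands as GAAA, any 2 bases, and GAAA again. It was found in 20 of the 32 genes (62.5%), against 4.12% of all 27457 genes with a promoter in that table. The GAS core TTCNNNGAA, which reads the same on both strands, was found in 7 of the 32 (21.9%), against 9.39% of all genes. These 7 were Irf1, Irf9, Oas1a, Bst2, Samhd1, Parp14 and Ifi44l. A match is only a run of letters, not a measured binding site. The sequences that follow are 9 promoters of ISGs that were lower with EMO and then 3 of ISGs that differed by 1.35-fold or less. Of these 3, Eif2ak2 was also lower, whereas Rsad2 and Ifi27 did not pass the test. Each sequence ends before the start site and runs 5′ to 3′ along the gene's strand. The ISRE core is in capitals (TTTC, 2 bases, TTTC where it lies on the other strand).
Irf7, chr1:205800058-205800117, minus strand: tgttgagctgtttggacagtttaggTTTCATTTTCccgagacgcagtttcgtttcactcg
Oas1a, chr12:41330400-41330459, plus strand: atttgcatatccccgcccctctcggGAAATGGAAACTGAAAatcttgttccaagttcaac
Ifit3, chr1:241527257-241527316, plus strand: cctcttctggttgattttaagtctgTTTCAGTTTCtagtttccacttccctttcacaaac
Bst2, chr16:18255064-18255123, minus strand: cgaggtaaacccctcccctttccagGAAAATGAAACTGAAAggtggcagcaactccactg
Gbp5, chr2:233910918-233910977, plus strand: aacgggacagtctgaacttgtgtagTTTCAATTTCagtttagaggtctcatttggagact
Trim21, chr1:166399372-166399414, minus strand: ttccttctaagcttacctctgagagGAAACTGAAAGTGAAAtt
Parp14, chr11:78408033-78408092, plus strand: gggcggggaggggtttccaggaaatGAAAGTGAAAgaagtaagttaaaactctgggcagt
Ifi44, chr2:243303841-243303891, minus strand: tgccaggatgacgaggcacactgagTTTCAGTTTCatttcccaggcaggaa
Xaf1, chr10:57415899-57415934, plus strand: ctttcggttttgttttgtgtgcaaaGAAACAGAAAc
Eif2ak2, chr6:21941113-21941153, plus strand: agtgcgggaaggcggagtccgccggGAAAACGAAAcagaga
Rsad2, chr6:48788233-48788292, minus strand: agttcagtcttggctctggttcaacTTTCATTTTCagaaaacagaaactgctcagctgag
Ifi27, chr6:128355203-128355262, plus strand: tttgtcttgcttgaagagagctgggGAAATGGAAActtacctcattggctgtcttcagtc

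In Oas1a, Bst2 and Trim21, overlapping matches form a longer run of capitals. Among tested ISGs with a promoter, the median log2 fold change was -2.30 over 19 genes with the ISRE core, of which 17 were lower with EMO, and -2.53 over 12 genes without it, of which 12 were lower. The 19 genes include Rsad2 and Ifi27, which hold the core and did not pass the test. Of all genes tested, 41.4% were lower with EMO.

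ISG transcripts were mostly lower when EMO was present. Tested with edgeR (quasi-likelihood F test, p adjusted by Benjamini-Hochberg over the 13614 genes), 36 of the 40 tested ISGs (90%) were lower in the TNF-α+EMO group at an adjusted p under 0.05. Of all genes tested, 41.4% were lower, and 80.9% passed in either direction. Only Usp18 was higher (1 of 40), against 39.4% of all genes, and Ifit2, Rsad2 and Ifi27 did not pass the test. With an absolute log2 fold change over 1 as a further condition, 30 ISGs (75%) were lower, against 27.8% of all genes, and 0 were higher, against 19.5%. The median log2 fold change (TNF-α+EMO over TNF-α) was -2.34 over the tested ISGs and -0.01 over all genes tested. Both depend on the scaling, and with scaling by total counts only they were -2.45 and -0.12. In 37 of the 40, every TNF-α+EMO library lay below every TNF-α library in normalized counts (counts scaled by TMM to a common library size), which held for 42.5% of all genes. Usp18 was the 1 gene with the reverse order, which held for 40.3% of all genes. Zbp1, Oas1a, Oasl, Ifit1, Ifit3, Mx1, Mx2, Gbp1, Ifi44l and Xaf1 reached 10 counts in 3 libraries only through the TNF-α group. They could enter the test only by being high there, so a lower call was close to fixed in advance. They are part of the 36, the 30, the 37 and the median, and the same filter was applied to all genes. The distribution of log2 fold changes below shows both sets.

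**Figure D1:**
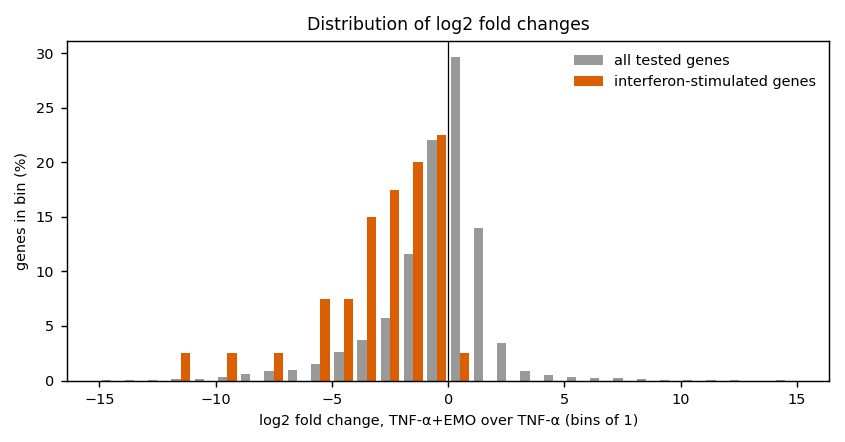
Percentage of genes in each bin of log2 fold change (x axis, TNF-α+EMO over TNF-α, bins of 1) for all 13614 tested genes (grey) and the 40 tested ISGs (orange). The grey bars centre near 0 (median -0.01), whereas the ISGs spread to the left (median -2.34) with 1 gene above 0. The leftmost orange bars rest on fitted values of genes with few or no counts with EMO.

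The libraries held 16813322 to 17794455 counts, and 42 genes shared a small part of them. Summed over the 42 ISGs, the normalized counts were 38836, 41547 and 39826 under TNF-α alone and 13396, 13392 and 13887 under TNF-α+EMO, a mean of 40069 ± 1372 against 13558 ± 285 (SD, n = 3 each). The summed level was thus 2.96-fold lower with EMO. Without the Rnf213 and Ifi27 counts, the sums were 27495 to 29141 under TNF-α alone and 8873 to 9392 with EMO. TNF-α+EMO replicate 3 stood apart from the other libraries of its group, since a chi-square statistic per gene, near 1 for sampling noise alone, was 25.2 and 16.1 between it and the other two, and 4.72 to 6.63 for the other pairs within a group. Without it, 37 ISGs were lower, 1 was higher, and the median log2 fold change was -2.31.

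Markers of the cells also differed between the groups, those of macrophages in both directions. Of 13 synovial fibroblast markers, 9 could be tested, 8 were lower and 1 (Dcn) was higher with EMO. Of all genes tested, 41.4% were lower and 39.4% higher. The summed normalized counts of the synovial fibroblast markers were 200671 to 220782 under TNF-α alone and 35161 to 37832 under TNF-α+EMO. Most of this sum was Col1a1 (mean 111181 against 3709) and Vim (61464 against 32387). Thy1, Pdpn and Prg4, which define these cells, had 16, 1 and 11 counts over the 3 TNF-α libraries and 0 in all libraries with EMO, and Col1a2 was not analysed here. Of 11 macrophage markers, 3 could be tested, Cd14 was lower, Cd68 and Itgam were higher, and the sum was 1214 to 1312 against 751 to 827. Cd14 made up most of that sum, at a mean of 1093 against 510. Itgam overlaps Itgax, which had up to 1763 counts, so its counts are uncertain. The defining leukocyte marker Ptprc had 1 count over all 6 libraries, and Cd163 and Tyrobp had 0. Of 5 epithelial markers, only Krt8 could be tested and was lower, with sums of 9950 to 10806 against 1968 to 2304, whereas Epcam had 0 counts in every library. The 4 lymphocyte markers summed to 3.92 normalized counts or fewer in any library, and the 4 endothelial markers with a row to 69.2 to 76.5 against 13.2 to 21.7. The part of these shifts in the ISG differences was not tested, and in RNA from whole cultures fewer cells of a type and less RNA per cell cannot be told apart.

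The 4 transcription factors of the list were all lower with EMO, against 41.4% of all genes tested, by amounts that differed widely. Irf7, the factor that amplifies interferon production (chromosome 1, 214248837 to 214252456, coordinates as deposited, Rnor_6.0 by the submitters' processing notes), had 1446, 1439 and 1480 normalized counts under TNF-α alone and 212, 169 and 189 under TNF-α+EMO. The groups did not overlap, and the level was 7.64-fold lower with EMO (log2 fold change -2.93 ± 0.10 SE, edgeR adjusted p = 3.0e-10). Irf7 overlaps Phrf1 on the other strand, which had up to 2452 counts, and the strand setting of the counting is not given in the sources used here, so some of its reads are uncertain.

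Irf1, which TNF and interferon gamma induce (chromosome 10, 39109522 to 39116531), had 2250, 2326 and 2358 normalized counts with TNF-α and 842, 933 and 892 with EMO added, a log2 fold change of -1.38 ± 0.07 (SE, edgeR adjusted p = 5.9e-09). For Irf9, the DNA-binding part of ISGF3 (chromosome 15, 34282936 to 34288138), the values were 630, 675 and 695 against 257, 213 and 256, a log2 fold change of -1.46 ± 0.10 (SE, edgeR adjusted p = 1.3e-07). Stat2, its partner (chromosome 7, 2691369 to 2707741), differed least of the 4. It was 1967, 2116 and 2085 under TNF-α alone and 1470, 1494 and 1513 under TNF-α+EMO, 1.38-fold lower (log2 fold change -0.46 ± 0.06 SE, edgeR adjusted p = 2.8e-05). In each of the 4, the lowest TNF-α library lay above the highest TNF-α+EMO library, as the plot of every library shows. That order held for 42.5% of all genes tested.

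**Figure D2:**
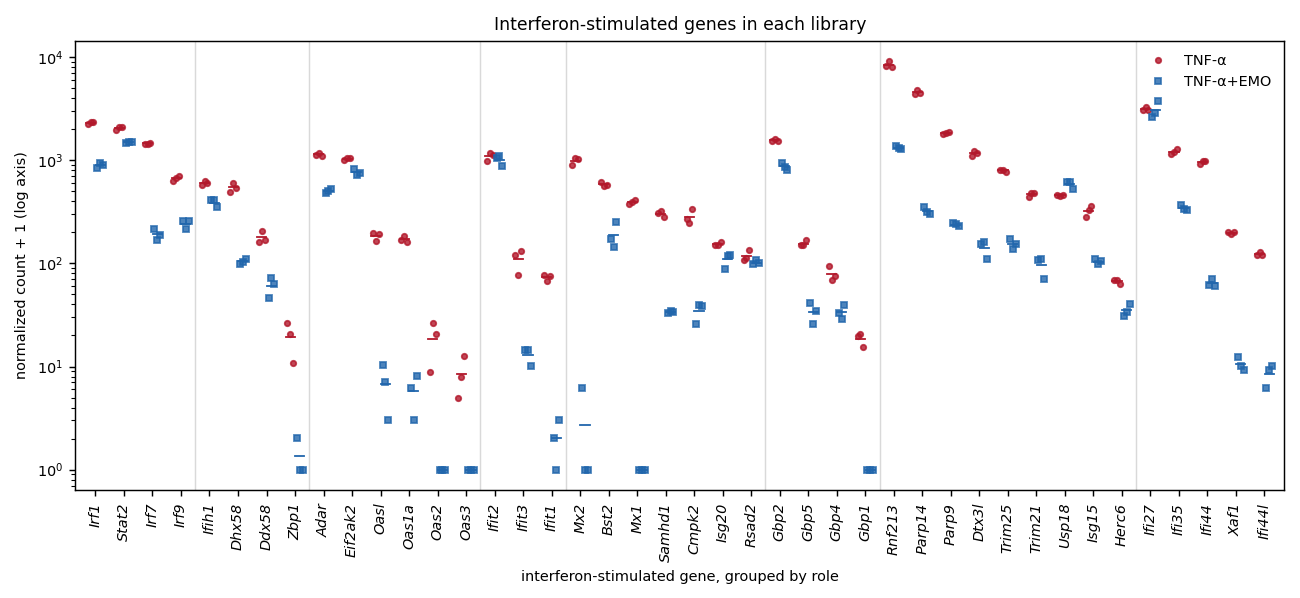
Normalized count + 1 (y axis, log scale) of each of the 42 ISGs (x axis, grouped by role, grey lines between roles) in the 3 TNF-α libraries (red circles) and the 3 TNF-α+EMO libraries (blue squares), with group means of the normalized count as short lines. Red points lie above blue points in most genes, Usp18 shows the reverse, and Ifit2 and Ifi27 overlap.

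The cytosolic sensors of foreign nucleic acid were all lower, against 41.4% of all genes tested. Dhx58 (LGP2, which regulates the other RNA helicases) showed 491, 602 and 543 normalized counts in the TNF-α group and 98.0, 102 and 110 in the TNF-α+EMO group, 5.27-fold lower (log2 fold change -2.40 ± 0.12 SE, edgeR adjusted p = 8.0e-09). Ddx58 (RIG-I, a sensor of viral RNA ends) had 161, 204 and 168 against 45.4, 70.6 and 62.1, a log2 fold change of -1.58 ± 0.20 (SE, edgeR adjusted p = 2.6e-05). Ifih1 (MDA5, a sensor of long double-stranded RNA) fell less, from 569, 625 and 600 to 408, 406 and 349, a log2 fold change of -0.62 ± 0.09 (SE, edgeR adjusted p = 8.1e-05). The groups did not overlap in any of these 3 helicases, with EMO lower, as in 42.5% of all genes tested. Zbp1, a sensor of Z-form nucleic acid, was near the limit of detection, with 26, 20 and 10 counts under TNF-α alone and 1, 0 and 0 with EMO, a ratio of 53.4 with an exact 95% counting interval of 9.20 to 2146 (adjusted p = 1.4e-04, edgeR).

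Among the enzymes that act on double-stranded RNA, the oligoadenylate synthetases were close to absent with EMO. Oas1a (chromosome 12, 41200718 to 41211909), which makes the messenger that activates RNase L, had 167, 184 and 160 normalized counts with TNF-α and 5.16, 2.05 and 7.13 with EMO, a log2 fold change of -5.12 ± 0.32 (SE, edgeR adjusted p = 5.7e-08). Oasl, a family member (chromosome 12, 47444104 to 47456894), had 197, 163 and 192 against 9.28, 6.14 and 2.04, a log2 fold change of -4.96 ± 0.34 (SE, edgeR adjusted p = 1.4e-07). Oas2 had 8, 26 and 20 counts and Oas3 had 4, 7 and 12 under TNF-α alone, and both had 0 in all libraries with EMO. Against a floor of 3 counts over the group, Oas2 was at least 17.2-fold and Oas3 at least 7.31-fold lower in normalized counts. These bounds take the TNF-α counts as exact. The count filter kept both out of the test, and without that filter both passed it (edgeR adjusted p = 1.0e-05 and 9.6e-04). The rat Oas1 genes are close copies of each other, so the counting may have split reads between them.

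The other two enzymes of this kind kept a higher level. Adar, which edits adenosine to inosine in double-stranded RNA, had 1122, 1185 and 1105 normalized counts under TNF-α alone and 482, 501 and 523 with EMO, 2.27-fold lower (log2 fold change -1.18 ± 0.08 SE, edgeR adjusted p = 7.6e-08). Eif2ak2 (PKR, the kinase that halts translation) had 1008, 1053 and 1039 against 830, 722 and 745, which is 1.35-fold lower (log2 fold change -0.43 ± 0.08 SE, edgeR adjusted p = 3.6e-04). Neither gene overlapped between the groups, with EMO lower, as in 42.5% of all genes tested.

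The 3 IFIT genes belong to a family with members that bind foreign RNA. They lie beside each other on chromosome 1 within 51508 bases, on the same strand, and differed from each other in their response. Ifit2 had 985, 1168 and 1114 normalized counts under TNF-α alone and 1053, 1100 and 875 under TNF-α+EMO, and the groups overlapped (log2 fold change -0.11 ± 0.10 SE, edgeR adjusted p = 0.33). Ifit3, which starts 5507 bases after Ifit2 ends, had 121, 76.1 and 132 against 13.4, 13.3 and 9.17, 9.07-fold lower (log2 fold change -3.18 ± 0.30 SE, edgeR adjusted p = 2.2e-06). Ifit1 had 77, 68 and 76 counts against 1, 0 and 2, a ratio of 70.2 with an exact 95% counting interval of 23.7 to 343 (adjusted p = 5.4e-07, edgeR). Within each library, the log2 ratio of Ifit3 to Ifit2 (with 1 added to each normalized count) was -3.34 ± 0.51 with TNF-α and -6.30 ± 0.12 with EMO (SD, n = 3 each). The libraries of the groups did not overlap in this ratio, nor in that of Ifit1 to Ifit2, which was -3.90 ± 0.22 against -9.10 ± 0.97. These ratios, like those of the other pairs given here, were chosen after their values were seen and are a description, with no test.

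Of the antiviral effectors, the Mx genes showed the lowest levels with EMO. Mx1 (chromosome 11, 37891156 to 37914983), a dynamin-like GTPase that traps viral components, had 384, 406 and 420 counts under TNF-α alone and 0 in all 3 libraries with EMO, at least 385-fold lower against a floor of 3 counts over the group (adjusted p = 2.3e-09, edgeR). Mx2 (chromosome 11, 38035450 to 38059950), its paralog, had 913, 1087 and 1050 counts against 5, 0 and 0, a ratio of 582 with an exact 95% counting interval of 249 to 1793 (adjusted p = 1.8e-08, edgeR). These are close paralogs, and reads shared between them may have been split.

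Samhd1, which breaks down deoxynucleotides, had 307, 321 and 282 normalized counts with TNF-α and 32.0, 33.8 and 32.6 with EMO, a log2 fold change of -3.20 ± 0.15 (SE, edgeR adjusted p = 5.5e-09). Bst2 (tetherin, which holds budding virus at the cell surface) had 616, 559 and 579 against 171, 142 and 251, where the highest of the latter was replicate 3 (log2 fold change -1.64 ± 0.18 SE, edgeR adjusted p = 1.3e-05). Without that library the log2 fold change was -1.90. Isg20, an exonuclease, fell by 0.50 ± 0.17 log2 units (SE, edgeR adjusted p = 0.018), from 150, 149 and 159 to 87.7, 117 and 120. This call was lost without TNF-α replicate 3 (adjusted p = 0.058) or without TNF-α+EMO replicate 1 (adjusted p = 0.056).

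Rsad2 (viperin) and Cmpk2, which act together to make an antiviral nucleotide, are neighbours on chromosome 6 with 14085 bases between them, on opposite strands. Cmpk2 had 269, 247 and 333 normalized counts under TNF-α alone and 24.8, 38.9 and 37.7 under TNF-α+EMO, 8.34-fold lower (log2 fold change -3.06 ± 0.21 SE, edgeR adjusted p = 1.2e-07). Rsad2 had 107, 111 and 134 against 97.0, 106 and 98.8, and although the groups did not overlap it did not pass the test (log2 fold change -0.22 ± 0.17 SE, edgeR adjusted p = 0.25). The log2 ratio of Cmpk2 to Rsad2 was 1.26 ± 0.10 in the TNF-α group and -1.57 ± 0.31 in the TNF-α+EMO group (SD, n = 3 each), so the pair changed order.

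The guanylate-binding proteins, GTPases that act on vacuoles of pathogens, form a run of 4 ISGs on chromosome 2 within 231182 bases. All 4 were lower, against 41.4% of all genes tested. Gbp2, by far the most abundant of them, had 1530, 1611 and 1547 normalized counts against 941, 867 and 802 with EMO, a log2 fold change of -0.85 ± 0.08 (SE, edgeR adjusted p = 1.2e-06). Gbp5 had 148, 149 and 167 against 40.2, 24.6 and 33.6, a log2 fold change of -2.23 ± 0.22 (SE, edgeR adjusted p = 2.8e-06). Gbp4 had 93.2, 67.3 and 75 against 32.0, 27.6 and 38.7 (log2 fold change -1.26 ± 0.24 SE, edgeR adjusted p = 6.4e-04). Gbp1 was at 19, 20 and 15 counts with TNF-α and 0 in each library with EMO, at least 17.2-fold lower against the floor of 3 counts (adjusted p = 6.7e-05, edgeR). The groups overlapped in none of the 4 genes, with EMO lower, as in 42.5% of all genes tested. The family's close copies may share reads.

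**Figure D3:**
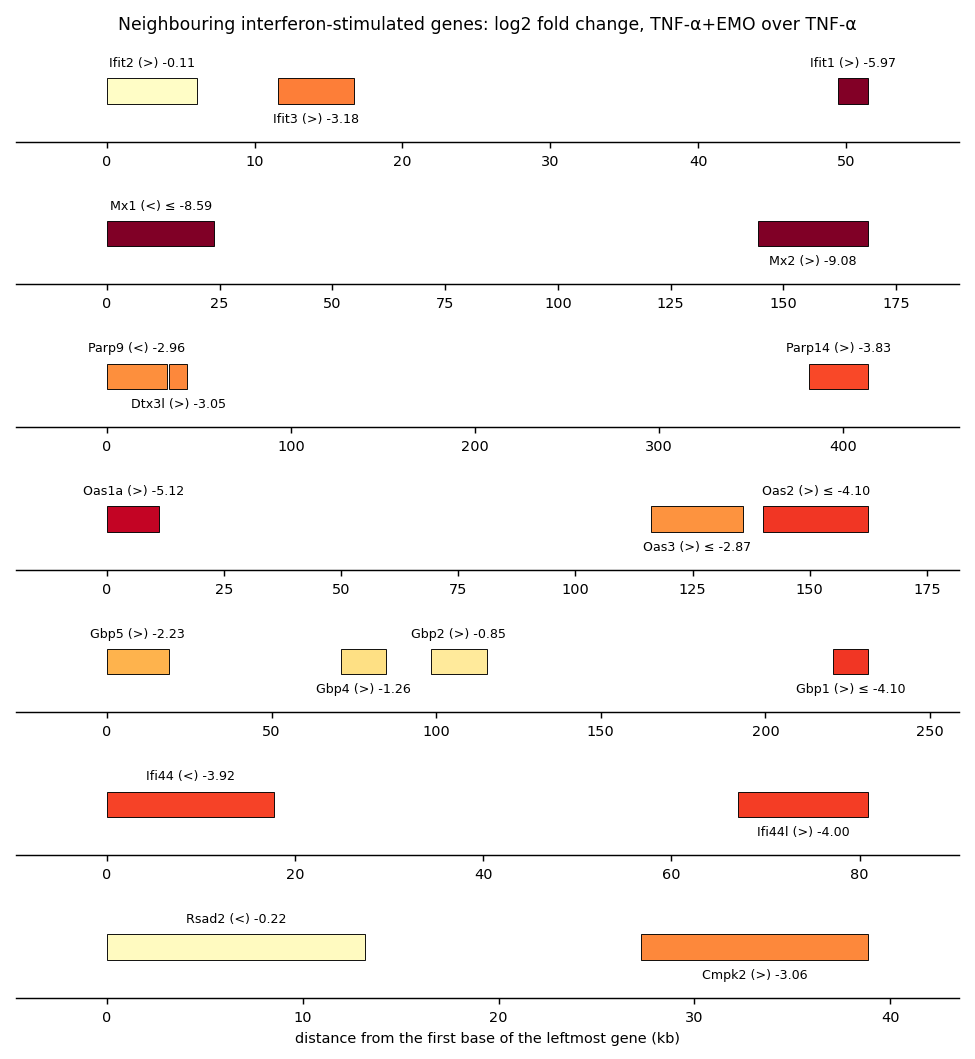
Neighbouring ISGs of 7 clusters drawn to scale, 1 cluster a row, with distance from the first base of the leftmost gene in kb (x axis, a scale for each row) and boxes from start to end of each gene, darker for a lower value. Numbers are log2 fold changes (bounds after ≤ for genes with 0 counts with EMO), and > or < gives the strand. Ifit2 (-0.11) sits beside Ifit3 (-3.18), and Rsad2 (-0.22) beside Cmpk2 (-3.06), while Parp9, Dtx3l and Parp14 lie between -3.83 and -2.96.

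The enzymes that attach or remove ISG15, ubiquitin or ADP-ribose included Rnf213 and Parp14, which had the highest normalized counts, not corrected for length, of the ISGs that fell. Parp14 (chromosome 11, 68105369 to 68137535), a mono-ADP-ribosyltransferase, had 4434, 4835 and 4471 normalized counts under TNF-α alone and 352, 316 and 298 with EMO, 14.2-fold lower (log2 fold change -3.83 ± 0.08 SE, edgeR adjusted p = 1.6e-11). Parp9 and its ubiquitin ligase partner Dtx3l share a start region, with 1128 bases between them on opposite strands. They fell by nearly equal amounts. Parp9 had 1786, 1830 and 1892 against 244, 237 and 227 (log2 fold change -2.96 ± 0.08 SE, edgeR adjusted p = 5.5e-11). Dtx3l had 1098, 1221 and 1185 against 154, 160 and 109 (log2 fold change -3.05 ± 0.13 SE, edgeR adjusted p = 2.7e-09).

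Rnf213, a giant ubiquitin ligase (chromosome 10, 108527740 to 108624688), had 8268, 9133 and 7971 normalized counts in the TNF-α group and 1364, 1303 and 1287 in the TNF-α+EMO group, 6.42-fold lower (log2 fold change -2.68 ± 0.07 SE, edgeR adjusted p = 6.5e-11). Trim25, the ligase that acts on RIG-I, had 807, 809 and 774 against 172, 137 and 152 (log2 fold change -2.37 ± 0.10 SE, edgeR adjusted p = 2.5e-09). Trim21, a cytosolic antibody receptor, had 441, 484 and 479 against 106, 108 and 69.3 (log2 fold change -2.30 ± 0.16 SE, edgeR adjusted p = 1.5e-07). In each of these ligases every TNF-α library lay above every TNF-α+EMO library, which held for 42.5% of all genes tested. Herc6, the ligase for ISG15 in rodents, was low in both groups, at 67.7, 67.3 and 62.3 against 29.9, 32.7 and 39.7 (log2 fold change -0.94 ± 0.23 SE, edgeR adjusted p = 0.0030).

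The transcripts of ISG15 and of the protease that removes it moved in opposite directions. Isg15, the ubiquitin-like modifier (chromosome 5, 173624310 to 173626248), had 280, 330 and 358 normalized counts under TNF-α alone and 108, 97.2 and 104 under TNF-α+EMO, a log2 fold change of -1.64 ± 0.14 (SE, edgeR adjusted p = 7.4e-07). Usp18 (chromosome 4, 153805993 to 153834430), which cleaves ISG15 from proteins and restrains signalling at IFNAR, had 462, 451 and 462 against 620, 616 and 519. It rose by 0.35 ± 0.09 log2 units (SE, edgeR adjusted p = 0.0044), and the groups did not overlap. Over 13 other scalings, filters and fits the rise in Usp18 was 0.24 to 0.42 (largest adjusted p = 0.039, edgeR or DESeq2). The log2 ratio of Isg15 to Usp18 within a library was -0.51 ± 0.19 with TNF-α and -2.49 ± 0.17 with EMO (SD, n = 3 each).

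The other interferon-induced proteins of the list included the most abundant ISG per length, Ifi27, and some of the largest decreases. Xaf1, an inhibitor of XIAP, had 201, 192 and 200 normalized counts under TNF-α alone and 11.3, 9.21 and 8.15 with EMO, 20.4-fold lower (log2 fold change -4.35 ± 0.21 SE, edgeR adjusted p = 7.6e-09). Ifi44 and Ifi44l, neighbours on chromosome 2, fell alike. Ifi44 had 919, 972 and 987 against 60.9, 69.6 and 59.1 (log2 fold change -3.92 ± 0.10 SE, edgeR adjusted p = 6.3e-11). Ifi44l had 119, 127 and 121 against 5.16, 8.19 and 9.17 (log2 fold change -4.0 ± 0.27 SE, edgeR adjusted p = 1.1e-07). Ifi35 had 1144, 1198 and 1276 against 370, 333 and 330 (log2 fold change -1.81 ± 0.09 SE, edgeR adjusted p = 6.1e-09).

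Ifi27 had 3073, 3273 and 3083 normalized counts with TNF-α and 2640, 2874 and 3727 with EMO, and the groups overlapped (log2 fold change -0.03 ± 0.11 SE, edgeR adjusted p = 0.83). The highest value was that of TNF-α+EMO replicate 3, without which the log2 fold change was -0.20 and passed the test (adjusted p = 0.0048, edgeR). Its close relative Ifi27l2b, not a member of the list, rose by 5.32 ± 0.41 log2 units (SE, edgeR adjusted p = 1.7e-04), from a mean of 131 ± 22.7 to 5204 ± 2100 normalized counts (SD, n = 3 each). Reads may be shared between such relatives.

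**Figure D4:**
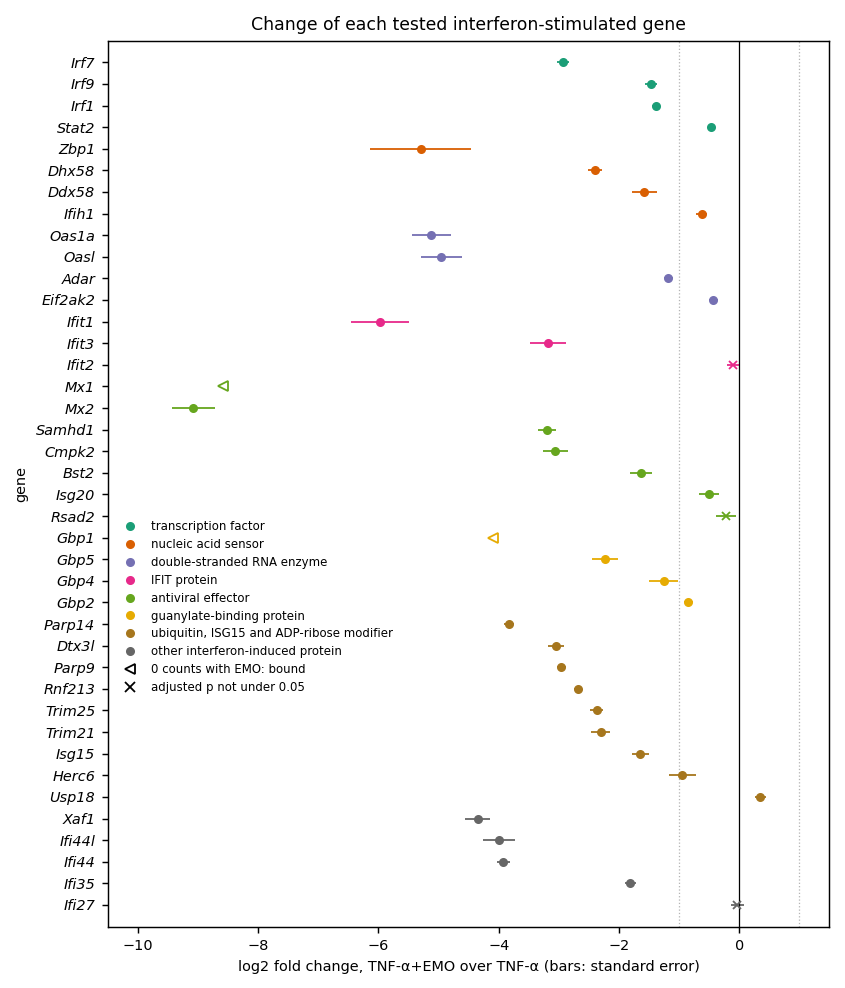
Log2 fold change (x axis, TNF-α+EMO over TNF-α) of the 40 tested ISGs with standard errors as bars, coloured by role, and dotted lines at -1 and 1. Open triangles are bounds for Mx1 and Gbp1, which had 0 counts with EMO, and crosses mark Ifit2, Rsad2 and Ifi27, which did not pass the test. Fitted values for Zbp1, Ifit1 and Mx2, with 5 counts or fewer over the TNF-α+EMO group, depend on a small added count.

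Levels between genes were compared per length, as normalized counts per kilobase of the deposited gene length. In the TNF-α group the highest were Ifi27 at 3939, Irf1 at 1129, Ifi35 at 1126 and Irf7 at 737 per kilobase, and the median of the 40 tested ISGs was 239, against 191 for all genes tested. With EMO the median of the ISGs was 36.2, against 155 for all genes. Ifi27 and Irf1 remained the first and the second of the list, whereas Irf7 moved from rank 4 to 14 and Parp14 from rank 6 to 19. The spread between replicates of the ISGs was like that of other genes. For genes with a mean of at least 100 normalized counts, the median coefficient of variation was 4.97% over 35 ISGs and 5.05% over all such genes in the TNF-α group, and 8.21% over 22 ISGs and 8.34% over all such genes in the TNF-α+EMO group.

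The genes that act before the ISGs were given by a list of 38 names of ligands, receptors, kinases, factors, sensors and inhibitors, of which 24 could be tested. By edgeR's test, 15 were lower, 5 were higher and 4 did not pass, with a median log2 fold change of -0.80. Of all genes tested, 41.4% were lower and 39.4% higher, and the share called in either direction, 20 of 24, was near the 80.9% of all genes. Interferon transcripts were near the limit of detection in both groups. Ifnb1 had 1 count over the 3 TNF-α libraries and 0 with EMO, Ifne had 13 and 3, Ifna4 had 0 and 1, and the other 8 ligands listed had 0 in every library, which allows up to 3 counts over a group.

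The receptor subunits did not move together. Ifnar1 and Ifnar2, the subunits that bind type I interferon, had log2 fold changes of -0.08 ± 0.06 (SE) and 0.01 ± 0.10 (SE), and neither passed the test (adjusted p = 0.27 and 0.95, edgeR). Ifngr1, the ligand-binding subunit for interferon gamma, fell by 0.84 ± 0.08 log2 units (SE, edgeR adjusted p = 2.9e-06), and its partner Ifngr2 rose by 0.59 ± 0.06 (SE, edgeR adjusted p = 3.7e-06). Ifnlr1 and Il10rb, which form the interferon lambda receptor, rose by 0.77 ± 0.11 (SE) and 1.51 ± 0.07 (SE, edgeR larger adjusted p = 4.7e-05). Of the kinases bound to these receptors, Jak1 rose by 0.38 ± 0.08 (SE), while Jak2 and Tyk2 had log2 fold changes of -1.36 ± 0.08 (SE) and -1.05 ± 0.09 (SE, edgeR largest adjusted p of the 3 = 8.6e-04).

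Of the genes by which nucleic acid induces interferon, 5 of 6 tested were lower, against 41.4% of all genes. These were Ikbke (log2 fold change -3.76), Tlr3 (-2.95), Cgas (-1.99), Sting1 (-1.04) and Tbk1 (-0.29), and the largest adjusted p among them was 0.0035 (edgeR). Mavs did not pass (log2 fold change 0.17, edgeR adjusted p = 0.098). Among the other IRF factors, Irf8 had the lowest log2 fold change, -4.16 ± 0.16 (SE, edgeR adjusted p = 1.0e-09), Irf2 and Irf5 fell by 0.97 and 0.92, and Irf3 did not pass (log2 fold change 0.20, edgeR adjusted p = 0.098). Irf5 overlaps Tnpo3, and Irf3 overlaps Bcl2l12 (up to 527 counts), each on the other strand, so both are uncertain. Of the inhibitors, Socs1 (log2 fold change -0.75), Socs3 (-1.85), Ptpn6 (-3.33) and Pias1 (-0.35) were lower and Ptpn2 (0.38) was higher. Of all genes tested, 80.9% passed in either direction.

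**Figure D5:**
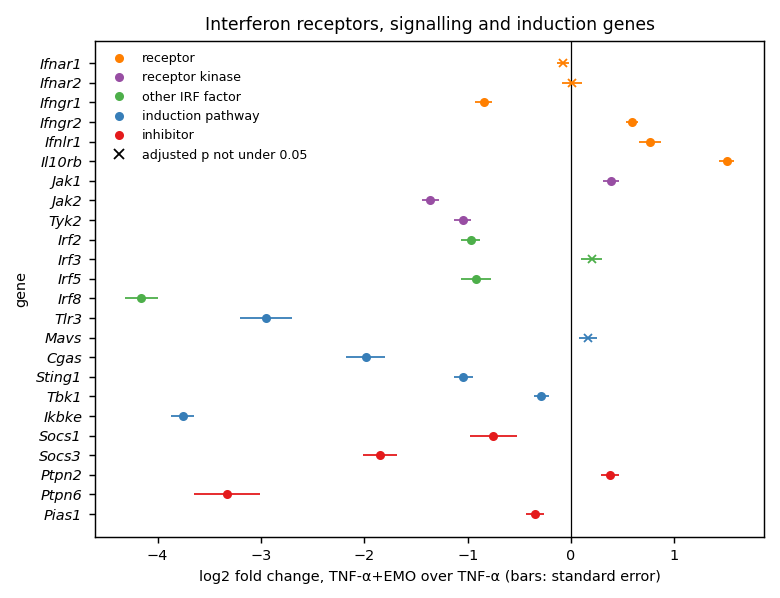
Log2 fold change (x axis, TNF-α+EMO over TNF-α) of the 24 tested genes that act before the ISGs, with standard errors as bars and colours by role. Ifnar1 and Ifnar2 lie near 0, the other receptor subunits lie between -0.84 and 1.51, and Irf8 (-4.16) and Ikbke (-3.76) lie furthest to the left.

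A further list of 31 genes that interferon induces, none of them among the 42, gave 27 that could be tested. Of these, 20 (74.1%) were lower and 4 higher with EMO, 3 did not pass, and the median log2 fold change was -2.20, where 41.4% of all genes were lower and 39.4% higher. The lowest fitted log2 fold changes were those of Cxcl11, Oasl2 and Cxcl9. Cxcl11, a chemokine for T cells, and Oasl2, an oligoadenylate synthetase relative, had log2 fold changes of -7.24 ± 0.37 (SE) and -7.11 ± 0.17 (SE, larger edgeR adjusted p = 2.1e-08). Cxcl9 had 52 counts over the TNF-α group and 0 with EMO, at least 16.5-fold lower against the floor of 3 counts over the group, so its place among these 3 rests on a fitted value. The 3 largest increases were in Ifi27l2b, Nmi (log2 fold change 0.49 ± 0.10 SE, edgeR adjusted p = 6.3e-04) and Tap1, a peptide transporter (log2 fold change 0.37 ± 0.06 SE, edgeR adjusted p = 1.1e-04). The membrane restriction factors Ifitm1, Ifitm2 and Ifitm3 were lower, with log2 fold changes of -4.60, -2.54 and -3.0.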

How the data were processed

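RNA from 6 samples was measured by poly(A)-selected paired-end RNA-seq. According to the study's methods and the submitters' processing notes, reads were cleaned (FastQC, Trimmomatic) and aligned with HISAT2 to Rnor_6.0. The counting program and its strand setting are not given in the sources used here. The authors deposited raw counts per gene, which were used for every result. The FPKM values the authors deposited, and their own comparison (a score that is the group mean of scaled counts, a log2 fold change and p-values per gene, deposited in the same table), were not used.

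Genes reaching 10 counts in 3 or more libraries were normalized by TMM and tested with edgeR 4.0.16 in R 4.3.3 (robust quasi-likelihood F test, Benjamini-Hochberg adjustment over all genes tested, threshold 0.05). The filter took no account of group, so a gene could enter only through the group where it was high. In the other lists this held for Ptpn6, Ifi47, Oasl2, Cxcl9, Cxcl11, Lum, Fap and Vwf through TNF-α alone. Dcn and Itgam entered only through TNF-α+EMO. Standard errors are the log2 fold change divided by the square root of F. The common biological coefficient of variation was 0.121. The depth of 16813322 to 17794455 counts a library, and the floor of 3 counts over a group, cover counting error only, as do the exact 95% binomial intervals of count ratios. Unlike those intervals, the bounds against the floor take the TNF-α counts as exact, so a bound with counting error in both groups would be smaller. The fits were tested on simulated counts with known fold changes. Only a small part of the genes was changed there, equally in both directions, whereas 80.9% of genes passed in the data. The simulation therefore does not cover differences as broad as these. The recovery required to pass, and its restriction to well-expressed genes, were set after the simulated results were seen, since earlier limits were not met. A stricter limit on well-expressed genes alone was among those not met, and the dispersions of the simulation were also changed between attempts. In low-count genes 2-fold changes were mostly missed, so a low-count gene that did not pass may still differ.

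The 42 members and the other lists were chosen with earlier results of these data known. Every member is named, and values per library are given for members with a mean of at least 100 normalized counts in a group (up to 30 by size of change) and for transcription factors. The rule covered most members, and the others were given the same values for completeness. Of the pathway list, receptor subunits, kinases and inhibitors are named, and of the further list the 3 largest changes each way. The sensors, factors, ligands, Ifitm genes and the ratios were chosen after their values were seen. Alternatives were other scalings and count filters (none, or at least 50 counts in at least 3 libraries), DESeq2 1.42.0, the replicate number as a block and leaving out each library. The median with genes at 0 counts set to their bound was added after seeing the data. Pecam1, Col1a2, Ticam1, Oas1b, Oas1k and Phf11 were not analysed here, and Mb21d1 and Tmem173 were taken as Cgas and Sting1.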

Additional observations from a re-analysis of the deposited data

How the results depend on the processing

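Over 13 alternatives (other scalings, count filters, DESeq2, the replicate block and each library left out), 34 to 38 interferon-stimulated genes were lower and 1 was higher at an adjusted p under 0.05. With a log2 fold change over 1, 28 to 32 were lower. The median log2 fold change was between -2.45 and -2.29, and -2.34 with Mx1 and Gbp1 at their bounds. The extremes of the counts come from the filters, which left 38 or 42 genes to test. Neither of these filters removes genes that enter only through the TNF-α group. Of 518 single-gene values under an alternative, 512 kept their direction and their side of the threshold. Isg20 lost its call without TNF-α replicate 3 or TNF-α+EMO replicate 1. For Ifi27, which did not pass, leaving out libraries gave values from -0.20 to 0.065, past the threshold only without TNF-α+EMO replicate 3, and 0.0012 without TNF-α replicate 2 and 0.01 without TNF-α+EMO replicate 2. Without composition scaling the median of all genes moved from -0.01 to -0.12, and the 3 uncalled genes stayed uncalled. With TMM scaling but no count filter, which adds low-count genes, the median of all genes was -0.13.

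With the replicate number as a block, 36 members were lower, 1 was higher, and the median was -2.35, so no call changed. Same-numbered libraries of the groups did not deviate together (correlations across genes of 0.02, -0.0068 and 0.07), so the numbers were not read as pairs. Oas2 and Oas3, which the count filter removed, were both lower in the fit with no filter. For genes with 0 counts with EMO, the size of the difference is known at this depth only as a bound.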
